A study of Rattus norvegicus with 4 samples.

Results

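The opioid and endocannabinoid systems act on neurons through receptors that couple to inhibitory G proteins. Opioid receptors answer peptides such as the enkephalins, dynorphins and nociceptin, which are cut from larger precursors, and they lower neuronal excitability by opening inwardly rectifying potassium channels and closing calcium channels. Endocannabinoids such as anandamide and 2-arachidonoylglycerol are lipids made on demand in the postsynaptic cell, and they act backwards on the presynaptic cannabinoid receptor before enzymes break them down. In the hippocampus, the CB1 receptor sits mainly on the terminals of cholecystokinin interneurons and, at lower density, on glutamatergic terminals, and dynorphin is stored in the granule cells of the dentate gyrus.

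The genes examined were 10 members of both systems, namely the receptors Oprm1, Oprd1, Oprk1, Oprl1, Cnr1 and Cnr2, the enzymes Faah, Mgll and Dagla and the channel Trpv1. A member was taken wherever the accession of a spot on the array resolved to its symbol, and this rule uses no measured value. By this rule 8 of the 10 members were found, on 10 probes, out of 8899 genes named on 10768 of the 41012 probes, and Faah and Dagla had no named probe and were not analysed here. Of these probes 7 were printed once, and 3 were printed 10 times, giving 37 spots per chip.

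Male Wistar rats, 10 weeks old at the start, were housed singly for 4 weeks in standard cages (sedentary, 10 rats), with a running wheel without resistance (WR, 8 rats) or with a wheel whose resistance was raised from 4.5 g in the first week to 30% of body weight (RWR, 8 rats). Equal amounts of hippocampal RNA from replicates were pooled within each group and hybridized in 2 colours to 4 chips of a whole-genome 60-mer array. The stated amounts of RNA imply only a few replicates per pool, fewer than the rats of a group. The methods do not say whether a replicate was a single rat. WR was set against sedentary RNA on chips 1 and 2, and RWR on chips 3 and 4, with the Cy3 and Cy5 dyes swapped within each pair. Each comparison rests on 1 pool of running rats and both use the sedentary group, although whether all 4 chips carried the same sedentary pool is not stated, so a pair repeats the measurement but not the animals, no test between conditions was possible, and no error across rats can be given.

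Each log2 ratio below is running over sedentary, and the mean of a pair is free of any dye effect that is equal on both of its chips. What the mean removes is called the dye term, the mean log2 ratio of Cy5 over Cy3 of the pair. The measurement error of a pair mean was estimated from how far the dye terms of both pairs differ among all probes of similar brightness. It ranged from 0.49 on the log2 scale among dim probes to 0.028 among the brightest. It covers hybridization and scanning only, and labelling as far as that was done separately for each chip, which is not stated. Over all probes the ratios of chips 1 and 2 correlated at r = -0.76 and those of chips 3 and 4 at r = -0.69, across probes, which are not independent replicates. Single chips thus followed the dye more than the group, while chips of like dye orientation correlated at 0.71 and 0.70.

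Detection divided the members before any comparison could. A probe counted as well above background on a chip where at least 50% of its usable spots carried that flag. Only 4 of the 10 probes reached this in all 8 channels, and these were the delta receptor Oprd1, a probe of the nociceptin receptor Oprl1, the CB1 receptor Cnr1 and Mgll, which encodes monoacylglycerol lipase, the main enzyme breaking down 2-arachidonoylglycerol. No member spot was saturated. The other 6 probes were those of the mu receptor Oprm1 (both probes), the kappa receptor Oprk1, the CB2 receptor Cnr2, the heat- and capsaicin-gated channel Trpv1, which anandamide also opens, and the second probe of Oprl1.

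**Figure D1:**
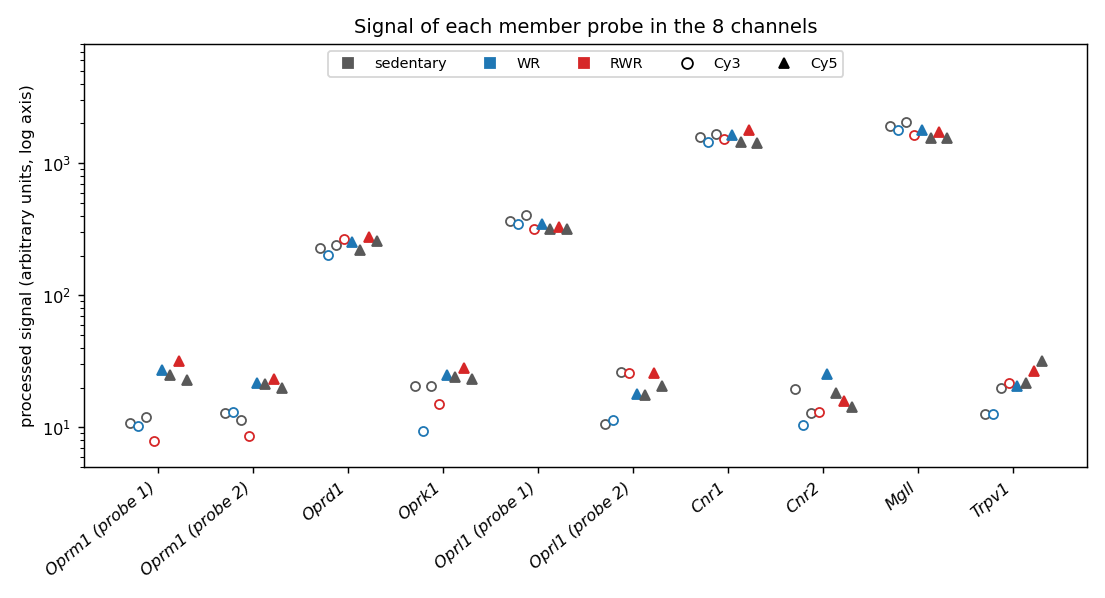
Processed signal (log axis, arbitrary units) of the 10 member probes in the 8 channels, with grey, blue and red for the sedentary, WR and RWR pools, open circles for Cy3 and filled triangles for Cy5. Each symbol is 1 channel, and heights of different probes cannot be compared as transcript levels. For Oprm1 all Cy5 triangles lie above all Cy3 circles in every pool, while the symbols of Oprd1, Oprl1 (probe 1), Cnr1 and Mgll lie close together.

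The mu receptor Oprm1 showed most plainly how the dim members behaved. Its probe with 10 spots (A_44_P376949) gave Cy3 signals of 10.9 and 12.1 in the sedentary pool, 10.3 in the WR pool and 7.84 in the RWR pool. In Cy5 it gave 24.9 and 22.8 in the sedentary pool, 27.1 in the WR pool and 32.1 in the RWR pool. Every Cy5 value was above every Cy3 value, whichever pool carried the dye. The ratios were accordingly 1.44 and -1.45 on the WR chips and 1.52 and -1.67 on the RWR chips. The pair means were -0.0043 for WR and -0.080 for RWR, with a measurement error of 0.34, against dye terms of 1.45 and 1.60. The second Oprm1 probe (A_44_P165760, 1 spot) gave pair means of 0.021 and -0.078 with dye terms of 0.74 and 1.12.

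The same order of dyes was seen in how the dim members were detected. Both Oprm1 probes and Cnr2 were well above background in all 4 Cy5 channels and in none of the 4 Cy3 channels. Oprk1 passed in 4 Cy5 channels and 1 Cy3 channel, the second Oprl1 probe in 3 and 1, and Trpv1 in 3 and 2. Cy5 lay above Cy3 on all 4 chips at 5 of these 6 probes, compared to 34.2% of the 4101 probes in the same signal levels. Over all probes the share was 26.4%, and 0 of the 4 bright members showed it. Detection in Cy5 alone held for 3 of the 6 and for 9.8% of those 4101 probes. Member spots reached an error-model p-value under 0.01 on a chip 25 times with Cy5 above Cy3 and 0 times with the reverse, whereas over all noncontrol spots Cy5 was the brighter dye in 54.3% of such cases. Repeat spots of the first Oprm1 probe, which share labelled RNA, made up all but 4 of the 25.

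**Figure D2:**
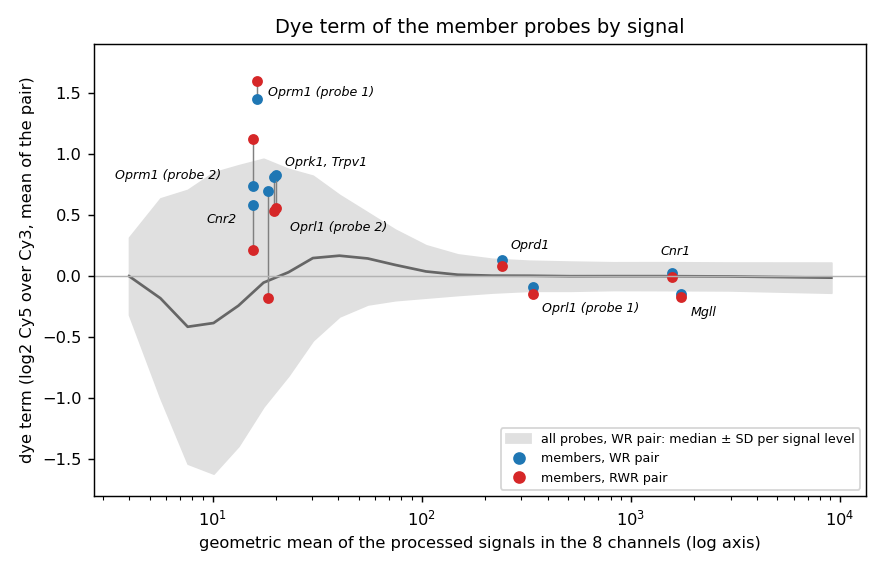
Dye term (log2 Cy5 over Cy3, mean of a pair) against the geometric mean signal over the 8 channels (log axis), with blue points for the WR pair and red points for the RWR pair, joined for each member probe. The grey line and band are the median and SD over all probes in the WR pair at each of 20 signal levels. Oprm1 (probe 1) lies at 1.45 and 1.60, outside the band, and the bright members lie near 0.

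For the remaining dim members no pair mean exceeded 2 measurement errors. Oprk1 had the lowest pair mean in WR, at -0.53 ± 0.34 (measurement error), from ratios of 0.28 on chip 1 and -1.35 on chip 2. Its signals were 20.4 (sedentary) and 24.8 (WR) on chip 1 and 9.46 (WR) and 24.0 (sedentary) on chip 2, so the WR pool was above the sedentary pool on one chip and below it on the other. The WR mean shrank to -0.18 with normexp background correction and to -0.095 without background correction. In RWR its ratios were 0.44 and -0.62, with a pair mean of -0.089.

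Cnr2, the cannabinoid receptor known mainly from immune cells and microglia, gave ratios of 0.37 and -0.80 in WR, with a pair mean of -0.21, and 0.30 and -0.13 in RWR, with a pair mean of 0.083. The WR mean turned to 0.060 with normexp and to 0.045 without background correction. Its signals lay between 10.5 and 25.3 over the 8 channels. Microglia themselves were well represented, since 8 of 8 measured microglial markers were well above background in every channel. Their summed signal was 14500 to 17830 in the sedentary channels, 15230 to 16260 in WR and 16730 to 18940 in RWR, and its part in the Cnr2 values was not tested.

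Trpv1, known best from nociceptive sensory neurons, gave ratios of 0.82 and -0.83 in WR and 0.45 and -0.67 in RWR, with pair means of -0.0030 and -0.11 and a measurement error of 0.26. Neither channel of the WR pool was well above background for Trpv1, and no fold was drawn. Among sensory ganglion markers 4 of 7 were well above background in all 8 channels, while Isl1 and Trpa1 were so in none. The summed signal of that list was 2571 to 3073 in the sedentary channels of all 4 chips, 2667 to 2967 in WR and 2633 to 2943 in RWR.

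**Figure D3:**
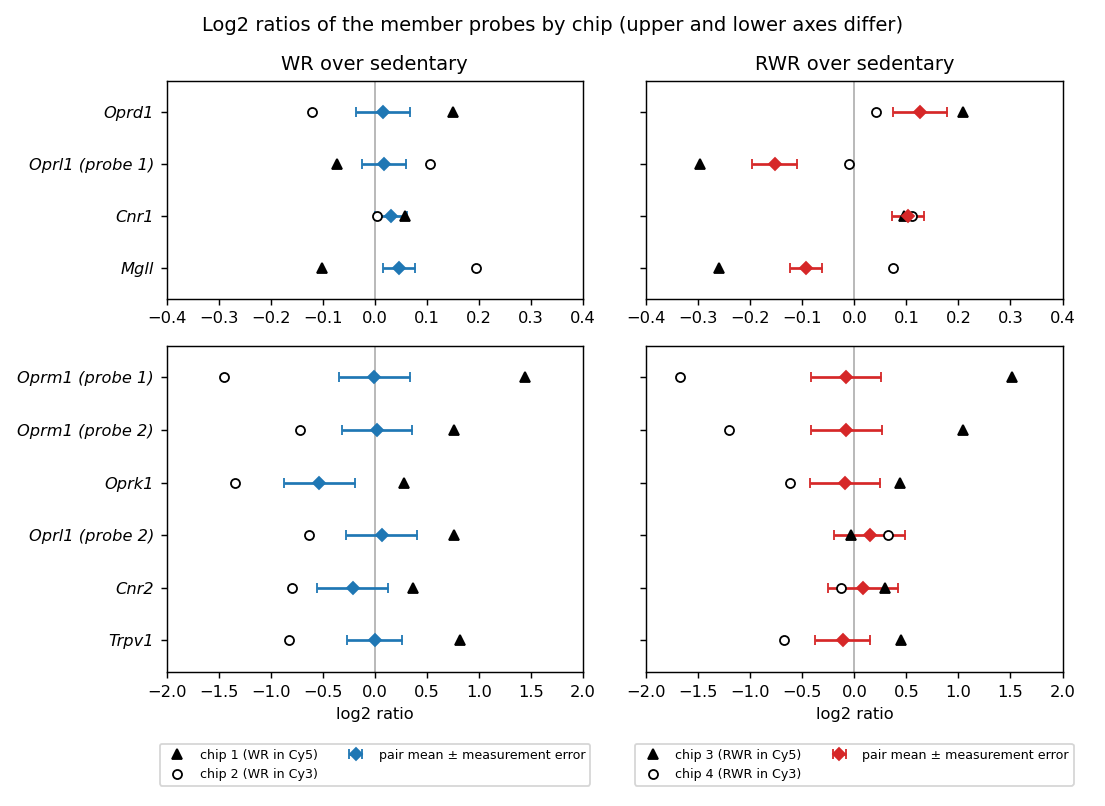
Log2 ratios of running over sedentary for the member probes, WR on the left and RWR on the right, with the 4 bright probes in the upper panels (axis from -0.4 to 0.4) and the 6 dim probes in the lower ones (axis from -2 to 2). Triangles are the chip with the running pool in Cy5, circles the chip with it in Cy3, and diamonds the pair mean with its measurement error. The dim probes spread widely between chips, with pair means from -0.53 (Oprk1 in WR) to 0.15 (Oprl1 probe 2 in RWR). In RWR the pair means of the bright probes lie between -0.15 and 0.13.

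After wheel running without resistance the bright members were close to the sedentary level. Cnr1 (A_43_P11563) gave signals of 1582 (sedentary) and 1648 (WR) on chip 1 and 1451 (WR) and 1446 (sedentary) on chip 2. Its ratios were 0.059 and 0.0045, and their mean of 0.032 ± 0.031 (measurement error) equals a fold of 1.02. It was the 1 member of 8 on the same side of 0 on both WR chips, compared to 23.8% of all named genes.

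Oprd1 (A_44_P172990) had signals of 226.7 (sedentary) and 251.7 (WR) on chip 1 and 202.2 (WR) and 219.8 (sedentary) on chip 2, with ratios of 0.15 and -0.12 and a mean of 0.015 ± 0.052. The 10-spot probe of Oprl1 (A_44_P408520) had signals of 364.4 (sedentary) and 346.5 (WR), then 344.1 (WR) and 319.5 (sedentary), with ratios of -0.073 and 0.11 and a mean of 0.017 ± 0.043. Mgll (A_44_P268864) had signals of 1925 (sedentary) and 1794 (WR), then 1782 (WR) and 1557 (sedentary), with ratios of -0.10 and 0.19 and a mean of 0.047 ± 0.031. For each of these genes the WR pool was above the sedentary pool on one chip and below it on the other. All 10 member probes lay within 2 measurement errors of 0 in WR.

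After resistance wheel running the same bright members lay further from the sedentary level, though by little. Cnr1 and Oprd1 had pair means above 0 and Oprl1 and Mgll below 0, each by more than 2 measurement errors. So did 23.5% of the 6317 named genes well above background in RWR, compared to 20.2% of 6001 in WR, where none of the 4 did. The middle 95% of these genes spanned -0.20 to 0.22 in RWR, and the 4 bright members were inside that range. The middle 50% of the same genes spanned -0.052 to 0.055, and none of the 4 was inside it.

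The CB1 receptor Cnr1 gave signals of 1678 (sedentary) and 1793 (RWR) on chip 3 and 1539 (RWR) and 1425 (sedentary) on chip 4. The RWR pool was thus brighter in both dye orientations, with ratios of 0.095 and 0.11. The pair mean was 0.10 ± 0.031, a fold of 1.07, or 3.34 measurement errors. Comparing channels of like dye across both chips gave 0.12 in Cy5 and 0.085 in Cy3. Such values regroup the same signals and average to the pair mean, so they are not a second measurement of its size. In WR they were 0.0957 in Cy5 and -0.0325 in Cy3 for Cnr1, and Oprd1, Oprl1 and Mgll also changed sign between dyes there.

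The nociceptin receptor Oprl1 lay in the other direction. Its signals were 402.8 (sedentary) and 328.2 (RWR) on chip 3 and 315.1 (RWR) and 317.5 (sedentary) on chip 4, so the pools differed on chip 3 and hardly on chip 4. The dye term was -0.14 in this pair and -0.090 in the WR pair. In RWR such a term moves the ratio of chip 3 away from 0 and that of chip 4 towards 0. The ratios were -0.30 and -0.011, and the pair mean was -0.15 ± 0.043, a fold of 0.899, or -3.61 errors. The 10 spots agreed closely, for their pair means ran from -0.18 to -0.13 with an SD of 0.014 and 10 of 10 were below 0, whereas 8 of 9 usable spots were above 0 in WR. Channels of like dye gave -0.15 in Cy5 and -0.16 in Cy3. Spots of a chip share its labelled RNA, so their agreement shows the precision of printing and scanning only.

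The second Oprl1 probe was too dim to resolve a difference of this size. A_43_P12591, with signals from 10.6 to 26.5, gave ratios of -0.030 and 0.32 in RWR and a pair mean of 0.15 ± 0.34, and neither WR channel was well above background. Taking the median over both probes moved the RWR value of the gene to -0.0030.

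**Figure D4:**
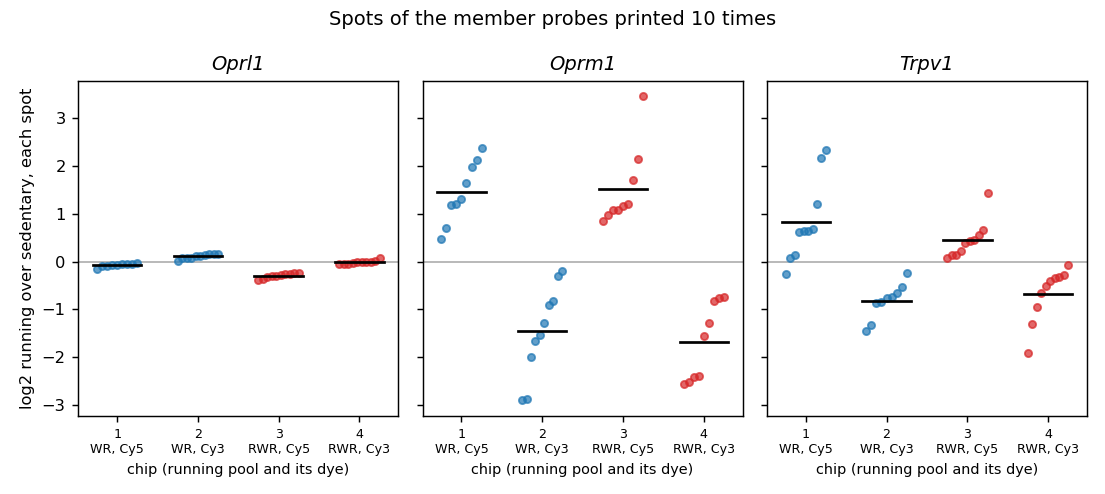
Log2 ratio of running over sedentary at each usable spot of the 10-spot probes of Oprl1, Oprm1 and Trpv1 on each chip, with the mean as a black bar. Spots of Oprl1 lie within a narrow band on each chip, with chip means of -0.073, 0.11, -0.30 and -0.011, while those of Oprm1 and Trpv1 scatter over more than 1 log2 unit and, with 1 Trpv1 spot on chip 1 as the exception, take the sign of the dye.

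Mgll gave signals of 2051 (sedentary) and 1711 (RWR) on chip 3 and 1640 (RWR) and 1558 (sedentary) on chip 4. Its ratios of -0.26 and 0.074 lay on both sides of 0, and on both chips the pool labelled with Cy3 was the brighter one. The pair mean was -0.093 ± 0.031, a fold of 0.937, or -3.03 errors, and channels of like dye gave -0.077 in Cy5 and -0.11 in Cy3.

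The delta receptor Oprd1 gave signals of 239.4 (sedentary) and 276.8 (RWR) on chip 3 and 265.3 (RWR) and 257.6 (sedentary) on chip 4. The ratios were 0.21 and 0.042, and the pair mean was 0.13 ± 0.052, a fold of 1.09, or 2.41 errors. In channels of like dye the RWR pool was lower by Cy5, at -0.10, and higher by Cy3, at 0.36, so this gene alone among the 4 did not keep its direction in both dyes. Across both chips 3 of 8 members (Cnr1, Oprd1 and Oprl1) stayed on the same side of 0, compared to 28.2% of all named genes.

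The study's methods do not say whether each cutoff had to be passed on each chip of a pair. Here a ratio over 1.5 or under 0.75 was asked on both chips, each with an error-model p-value under 0.01, and these cutoffs selected 0 of the 8 member genes in either comparison. They selected 7 of 8899 named genes in WR (0.0787%) and 6 in RWR (0.0674%). Without the p-value, the cutoffs still selected 0 members, compared to 47 genes in WR (0.528%) and 151 in RWR (1.7%). The lowest single-chip p-value of a bright member was 0.16, for Oprl1 on chip 3. The median over the 8 members was 0.0062 in WR and -0.084 in RWR, beside 0.0016 and -0.0048 over all named genes, and the RWR median turned to 0.022 with normexp and to 0.018 without background correction. Over the 4 bright members the medians were 0.024 and 0.0048.

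Side by side, the RWR and WR values of the bright members differed by 0.11 for Oprd1, -0.17 for Oprl1, 0.071 for Cnr1 and -0.14 for Mgll (RWR minus WR). The measurement errors of these differences were 0.074, 0.060, 0.044 and 0.044. With the running pool in Cy5 the difference was -0.22 for Oprl1 and -0.16 for Mgll, and with it in Cy3 it was -0.12 for both. For Cnr1 the same values were 0.037 and 0.11, and for Oprd1 they were 0.059 and 0.16. Channels of like dye gave -0.19 and -0.15 for Oprl1, -0.18 and -0.097 for Mgll and 0.025 and 0.12 for Cnr1 in Cy5 and Cy3, but for Oprd1 they gave -0.21 and 0.43, on both sides of 0. Each difference of pair means lay inside the middle 95% of 5929 bright named genes, from -0.22 to 0.22.

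The precursors that feed the opioid receptors were all well above background in every channel. Pdyn encodes prodynorphin, the source of the kappa receptor's dynorphins, and its probe A_44_P476915 gave 4837 (sedentary) and 4680 (WR) on chip 1 and 4039 (WR) and 4757 (sedentary) on chip 2. On the RWR chips it gave 5141 (sedentary) and 4721 (RWR), then 3566 (RWR) and 4772 (sedentary). The running pool was below the sedentary pool on all 4 chips, which are not independent because both pairs use the sedentary group. Its ratios were -0.048 and -0.24 in WR, with a mean of -0.14 ± 0.028, and -0.12 and -0.42 in RWR, with a mean of -0.27, which lay outside the middle 95% of bright genes in RWR. Channels of like dye gave -0.14 in both dyes for WR, and -0.25 in Cy5 and -0.29 in Cy3 for RWR.

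Penk, which encodes the enkephalin precursor, lay above the sedentary level on all 4 chips. Its bright probe (A_42_P749184) gave 897.3 (sedentary) and 999.1 (WR), 987.1 (WR) and 863.3 (sedentary), 1019 (sedentary) and 1110 (RWR), and 925.0 (RWR) and 821.9 (sedentary) on chips 1 to 4. The ratios were 0.16 and 0.19 in WR and 0.12 and 0.17 in RWR, with means of 0.17 ± 0.032 and 0.15. Its second probe (A_44_P497807) was not well above background in either WR channel. There its mean was -0.59 ± 0.41, from ratios of 0.18 and -1.36, and in RWR it was -0.13 ± 0.41.

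Pnoc, the precursor of nociceptin, the ligand of Oprl1, was above the sedentary level on all 4 chips, at 0.075, 0.070, 0.11 and 0.13, with means of 0.072 ± 0.031 and 0.12. Pomc, the precursor of beta-endorphin, which binds the mu receptor, had means of 0.017 ± 0.035 and 0.056. None of the 4 precursors passed the cutoffs.

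Of 57 other genes of the pathways listed, 52 were measured, and 0 passed the cutoffs in either comparison. Their median ratio was 0.034 in WR and 0.0079 in RWR, 33 and 26 of them were above 0, and 34.6% and 38.5% kept their sign on both chips, beside 29.8% and 32.2% of named genes well above background. Without the p-value 1 gene passed in RWR, the lipid receptor gene Gpr119 at -0.94, which was well above background in no channel.

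Of the bright pathway genes, the 5 furthest from 0 were Grk3, Rgs4, Ptgs2, Kcnj6 and Penk in WR, and Pdyn, Kcnj6, Pcsk1, Rgs4 and Penk in RWR. Kcnj6, a subunit of the potassium channel that opioid and CB1 receptors open, had ratios of 0.29 and 0.069 in WR and 0.30 and 0.065 in RWR, with means of 0.18 ± 0.032 in both. Rgs4, which shortens signalling by inhibitory G proteins, was below 0 on all 4 chips, at -0.078, -0.34, -0.027 and -0.28, with means of -0.21 ± 0.028 and -0.15. Its second probe (A_44_P512255) gave -0.17 and -0.18. Grk3, a receptor kinase, had a mean of 0.24 ± 0.17 in WR from ratios of -0.27 and 0.76, and 0.080 without background correction.

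Among enzymes, Ptgs2, the cyclooxygenase that can also oxidize endocannabinoids, had means of 0.20 ± 0.035 in WR and 0.12 in RWR, with all 4 chips above 0. Pcsk1, a convertase that cuts peptide precursors, had means of 0.12 ± 0.052 and 0.18, also above 0 on all 4 chips, though the WR mean shrank to 0.039 with normexp and to 0.057 without background correction. Its second probe (A_42_P570848) gave 0.20 and 0.13. None of these named pathway genes passed the cutoffs on both chips of a pair, and none of the values has replicate rats behind it. On single chips, Grk3 passed on chip 2, at 0.76 with an error-model p-value of 0.00608. Pdyn passed the fold cutoff alone on chip 4, at -0.42 with an error-model p-value of 0.0429. Both pairs use the sedentary group, so the same side of 0 on all 4 chips is not 4 independent results. The share of all named genes on one side on all 4 chips was not computed, and the genes furthest from 0 were chosen by their pair means.

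**Figure D5:**
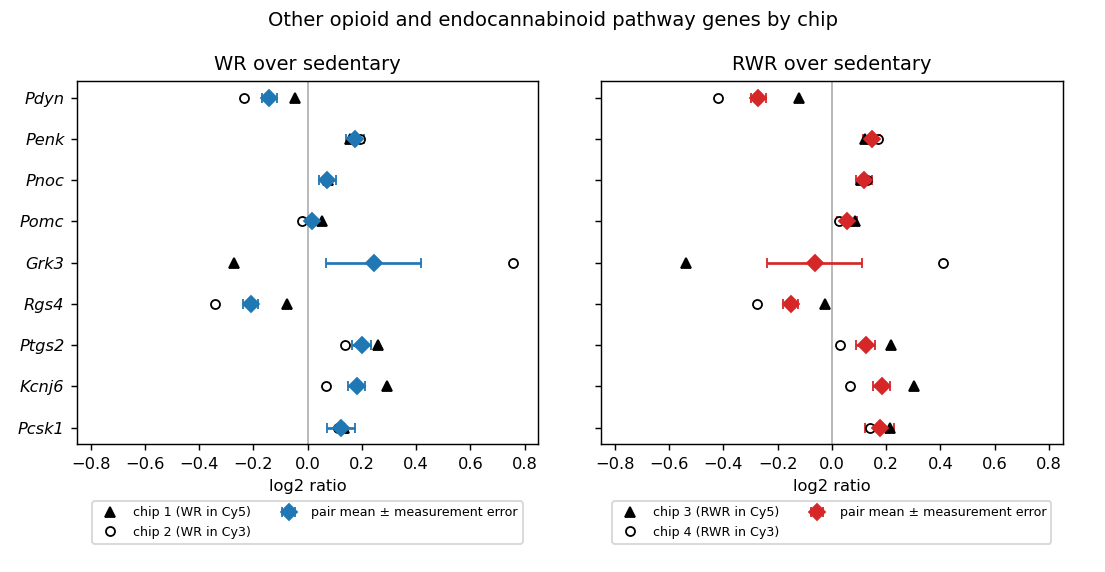
Log2 ratios of running over sedentary for the opioid peptide precursors and the other named pathway genes at the brightest probe, WR on the left and RWR on the right. Triangles and circles are the chips with the running pool in Cy5 and Cy3, and diamonds the pair mean with its measurement error. Pdyn and Rgs4 lie below 0 and Penk, Pnoc, Ptgs2, Kcnj6 and Pcsk1 above 0 on every chip, while the Grk3 chips lie on both sides. Both pairs use the sedentary group, so the chips are not independent.

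As a check of the tissue, 8 of 8 measured markers of hippocampal excitatory neurons and 9 of 9 of interneurons were well above background in all 8 channels. In whole tissue, fewer cells of a type and less RNA per cell cannot be told apart. The choroid plexus marker Ttr was called lower in WR at -0.86 and stood at 0.12 in RWR, and the summed signal of that list (8 of 8 measured, 2 in all channels, Kl and Prlr in none) was 642.2 to 737.2 in the sedentary channels, 371.3 to 451.2 in WR and 721.2 to 821.7 in RWR. Without Ttr the other 7 genes summed to 111.3 to 164.1, 104.6 to 136.2 and 155.2 to 170.0, and the list median in WR was 0.018. The pituitary hormone gene Prl was called lower in RWR, at -1.47 on chip 3 and -0.94 on chip 4, and was not well above background in that pool. A bound on its pair mean, set at the dimmest detected signals, was 2.01-fold lower. In WR the ratios were -1.52 and -0.44, the same bound was 1.5-fold, and Prl passed only without the p-value. These bounds leave out the measurement error of 0.26, and chip 4 in RWR and chip 2 in WR alone fell short of them. The summed signal of that list (7 of 9 measured, 4 in all channels, Pou1f1 in none) was 786.9 to 925.2 in the sedentary channels, 720.4 to 811.3 in WR and 916.1 to 938.1 in RWR. For this and every other list, the sedentary range takes the channels of all 4 chips together. Differences between chips thus stay in these sums, which do not set a running pool against the sedentary channel of its own chip. The median pair mean of the pituitary list was -0.063 in WR and 0.056 in RWR. Striatal markers, which bear on Penk and Pdyn, summed to 1235 to 1373 in the sedentary channels, 1102 to 1339 in WR and 1168 to 1524 in RWR, with 4 of 7 well above background throughout. Of 8 astrocyte and oligodendrocyte markers, 3 were above 0 in WR and 1 in RWR, with medians of -0.033 and -0.047, and the lowest in RWR was Mbp at -0.24. Interneuron markers had medians of 0.0056 in WR and 0.066 in RWR, with 6 of 9 above 0 in each. Highest in RWR was Npy at 0.24, from ratios of 0.50 on chip 3 and -0.011 on chip 4. Medians in WR and RWR were 0.023 and 0.058 for excitatory neuron markers and 0.036 and 0.11 for microglial markers. The part of these cell types in the member values was not tested.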

How the data were processed

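The authors scanned the 4 chips and processed them with Agilent Feature Extraction 11.0.1.1 (background subtraction, LOWESS dye normalization). Per the file headers, processed signals were deposited as an intensity per spot and dye, the deposited log10 ratio is Cy5 over Cy3, and the deposited p-value comes from the software's error model on a single chip. The authors also deposited the log10 ratio of the processed signals in a matrix, not turned for the dye swap. Members and gene lists were chosen with earlier results of these data known.

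From these files, control and outlier spots were dropped and log2 ratios taken as running over sedentary. The mean ratio and the median p-value over its spots stood for a probe. Array accessions were matched to RefSeq symbols (GRCr8) for names only, since the array was designed on rn4. The brightest probe stood for its gene. Measurement errors were taken within 20 signal levels as the scaled median absolute deviation of the difference between the dye terms of the pairs, over the square root of 2. Named genes were every member and precursor, called genes of the lists, and for each comparison the 5 pathway genes with the largest pair mean among probes well above background. Like-dye channels and lower bounds used Aquantile normalization (limma 3.58.1, R 4.3.3), and other steps Python 3.11.15, tested on simulated data. Alternatives were normexp (offset 50) or no background correction with loess, median centring, the matrix values, dim-probe filters, other cutoffs, medians over probes or spots and single chips. Like-dye values were added after seeing the data. The number of chips limits the precision.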

Additional observations from a re-analysis of the deposited data

Results flagged for a closer look

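Ttr, a choroid plexus gene outside both systems, lay below the sedentary level on both WR chips and above it on both RWR chips, so that its RWR minus WR difference was 0.98 on the log2 scale. The difference was not tested, since each comparison has 1 pool of running rats.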

How the results depend on the processing

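No member gene passed the cutoffs with other background corrections, centring, matrix values, dim-probe filters or cutoffs, each on both chips of a pair. The filters and the stricter cutoff of 1.5-fold in both directions could not have added a gene, and the matrix holds the same ratios. Of single chips, 1 member passed on chip 2 (Oprk1, lower) and 1 each on chips 3 and 4 (Oprm1, higher on one and lower on the other), giving 0 to 1 in WR and 1 in RWR, with 0 to 3 pathway genes in WR and 0 to 1 in RWR. Single-chip member medians ran from -0.46 to 0.21 in WR and from -0.071 to 0.25 in RWR, as the dye term then stays in the ratio. Without the p-value filter 1 pathway gene passed in RWR. The member median in RWR moved from -0.084 to 0.022 with normexp and to 0.018 without background correction, and RWR against WR moved from -0.0019 to 0.11 with normexp. The cause of these moves was not tested. The median dye term moved from 0.25 to 0.043 with normexp, 0.040 without background correction, -0.053 for probes above background in both dyes and 0.11 for those in at least 1. Over 8 alternatives the RWR values ran from 0.10 to 0.11 for Cnr1, 0.13 to 0.18 for Oprd1, -0.10 to -0.090 for Mgll and -0.15 to -0.0030 for Oprl1, the last from the median over its probes. In channels of like dye Oprd1 ran from -0.10 to 0.36 and Cnr1 from 0.085 to 0.12. Of the values of single genes, 133 moved by less than the measurement error and 19 by more under alternatives with both chips, 14 of the 19 in channels of like dye. Many of the 133 could not move, since the matrix holds the same ratios and the dim-probe filters leave a kept probe unchanged. Medians over probes or spots likewise change nothing for a gene with 1 probe or 1 spot. The ranges over 8 alternatives include such fixed values, so neither they nor the 133 measure robustness. No paired analysis was possible because the chips of a pair are dye swaps of the same pools.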
